A study of Homo sapiens with 36 samples.

Results

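Atirmociclib, classed as an inhibitor selective for CDK4, was compared with ribociclib, an inhibitor of both CDK4 and CDK6, at the same dose of 2 µM after 24 h in LNCaP cells. In the paper's kinase assays atirmociclib also inhibited CDK6 and CDK9, and more weakly CDK1, CDK2 and CDK7. The paper detected CDK6 in other lines of its panel and not in LNCaP. The part of these other targets in the results was not tested. LNCaP is a human prostate cancer line that responds to androgens. The comparison took the 3 atirmociclib libraries and the 3 ribociclib libraries of 24 h, 6 of the 36 libraries of the series, and covered every gene of the table. At each of the times 24 h and 72 h the series had 6 groups of 3 biological replicates, namely vehicle, ribociclib at 2 µM, atirmociclib at 1 or 2 µM, and AU2-94, another inhibitor of CDK4, at 1 or 2 µM. The labels name no transgene or knockout. All cells were of this 1 line and were plated 24 h before the drug was added, with fewer cells in the wells for 72 h than in those for 24 h. Vehicle libraries of 24 h and both drugs at 72 h are given where they bear on a result. Each value is a normalised count, a gene's read count scaled between libraries by the authors, which is a level relative to the other genes of the library and not a number of reads.

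CDK4 and CDK6, bound to a D-type cyclin, phosphorylate the retinoblastoma protein RB and so release E2F factors, which drive the genes of DNA synthesis. Later in the cycle the MuvB complex with MYBL2 and FOXM1 drives the genes of mitosis, and replication-dependent histone genes are transcribed in S phase to package the new DNA. CDK4/6 inhibitors are known for arresting RB-positive cells in G1.

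The totals of normalised counts ranged from 21686783 to 22054249 with atirmociclib and from 21540937 to 21643592 with ribociclib. The libraries were of similar scaled size, though all atirmociclib totals lay above all ribociclib totals. Depth in reads was unknown, since whole reads could not be recovered from the scaled values. All 14 prostate luminal markers had a mean of at least 10, with a summed level of 186000 to 193700 in the atirmociclib libraries and 187100 to 193200 in the ribociclib libraries. Of the basal, neuroendocrine, fibroblast and muscle, and immune and endothelial markers, 3 of 8, 2 of 12, 6 of 12 and 2 of 11 reached that mean. Transcripts of the mitochondrial genome took 7.28% to 7.7% of the total with atirmociclib and 7% to 7.21% with ribociclib, and the part of this difference in the results was not tested. Atirmociclib replicate 3 stood apart from its group: 43 genes lay at least 2-fold below both of its replicates, against 6 to 24 genes in each of the other libraries of 24 h.

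Genes that differed between the drugs were few and the differences mostly small. Of 16137 genes tested by limma over the 18 libraries of 24 h, 296 were higher with atirmociclib (1.83%) and 453 lower (2.81%) at an adjusted p of 0.05 or less, 4.64% in either direction. When a 2-fold difference was also required, 7 genes were higher (0.0434%) and 61 lower (0.378%). For 12918 genes (80.1%) the 95% interval of the difference lay within 2-fold, which bounds the difference for these genes and leaves smaller ones possible. The 4 lists of S-phase, mitotic, histone and CDK4/6-RB pathway genes, which cover 219 of the 16137 genes tested, held 121 of the 453 lower genes and 28 of the 61 lower by 2-fold, but 2 of the 296 higher ones. Of the 7 genes higher by 2-fold, 5 had a mean below 50, and among the 33 genes lower by 2-fold outside those lists 19 did. With a correction of each library for GC content and transcript length, a setting added after seeing the data, 407 genes were higher and 337 lower, so the share of lower calls moved from 60.5% to 45.3%. Leaving out 1 library at a time gave 163 to 209 higher and 301 to 348 lower genes, and the lowest of both came without ribociclib replicate 3. Without atirmociclib replicate 3, 185 genes were higher, without atirmociclib replicate 1, 171, and without ribociclib replicate 1 or 2, 165 or 180. Fitted on the 6 libraries alone, which lowers the information on the spread, 141 genes were higher and 274 lower. Scaling the libraries to equal totals gave 249 higher and 525 lower genes.

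**Figure D1:**
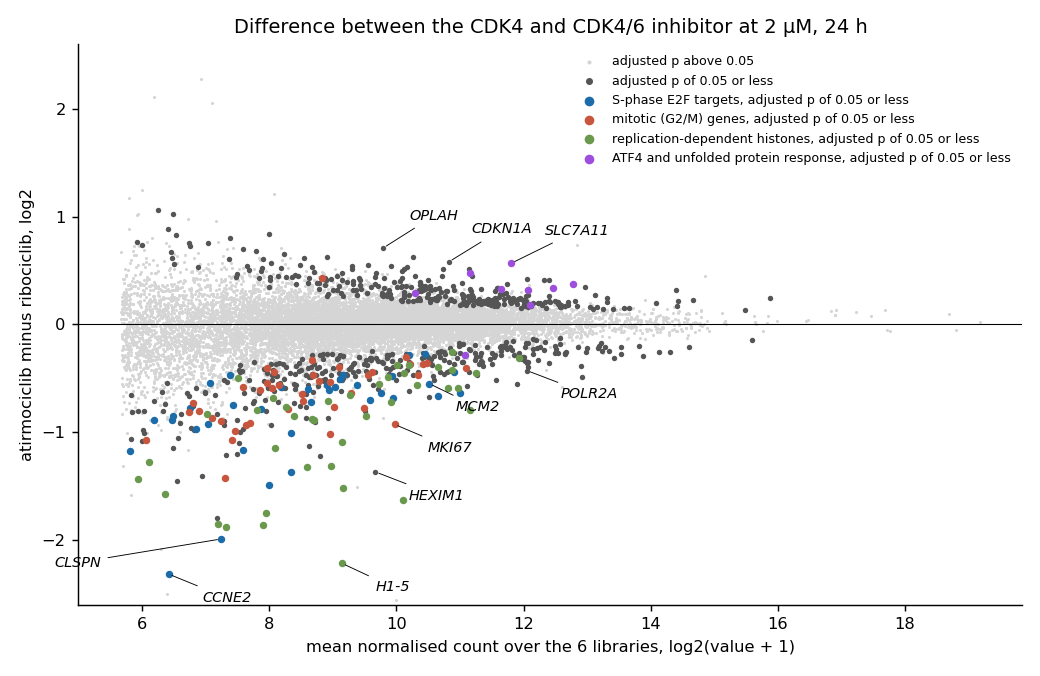
Each point is a gene whose normalised counts in the 6 libraries average 50 or more; the x axis gives that mean as log2(value + 1) and the y axis the difference atirmociclib minus ribociclib on the log2 scale at 24 h. Dark and coloured points had an adjusted p of 0.05 or less; S-phase, mitotic and histone genes lie below 0 except 1 mitotic gene, 8 of the 9 ATF4 and unfolded protein response genes lie above it, and 3 of 12310 genes lie beyond the y axis.

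The promoters of 4 genes are shown because they carry the sequence words associated with the gene groups described next, or belong to the gene with the lowest adjusted p. They are RefSeq sequences of GRCh38.p14, the 250 bases before the gene start, at chr9:96418371-96418620 (minus strand), chr6:27893175-27893424 (plus strand), chr10:128126424-128126673 (minus strand) and chr17:45148225-45148474 (plus strand). Capitals mark the E2F words TTTGGCGC and TTTCGCGC, the octamer ATTTGCAT of H2B genes and the CHR word TTTGAA, each on either strand.
ZNF367: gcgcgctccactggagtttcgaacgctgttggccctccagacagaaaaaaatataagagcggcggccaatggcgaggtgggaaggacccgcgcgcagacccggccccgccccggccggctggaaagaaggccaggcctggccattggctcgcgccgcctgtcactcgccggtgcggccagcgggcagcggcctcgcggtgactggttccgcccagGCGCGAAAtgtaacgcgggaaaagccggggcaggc
H2BC17: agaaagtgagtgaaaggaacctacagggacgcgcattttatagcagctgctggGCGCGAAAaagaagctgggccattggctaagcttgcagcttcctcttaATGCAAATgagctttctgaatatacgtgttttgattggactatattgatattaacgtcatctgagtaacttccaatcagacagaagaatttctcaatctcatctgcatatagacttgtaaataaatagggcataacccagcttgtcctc
MKI67: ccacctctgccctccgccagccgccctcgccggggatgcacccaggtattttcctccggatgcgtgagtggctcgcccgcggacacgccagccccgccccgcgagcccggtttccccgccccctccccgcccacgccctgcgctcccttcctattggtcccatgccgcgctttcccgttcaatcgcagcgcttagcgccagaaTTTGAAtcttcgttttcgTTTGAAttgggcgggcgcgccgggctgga
HEXIM1: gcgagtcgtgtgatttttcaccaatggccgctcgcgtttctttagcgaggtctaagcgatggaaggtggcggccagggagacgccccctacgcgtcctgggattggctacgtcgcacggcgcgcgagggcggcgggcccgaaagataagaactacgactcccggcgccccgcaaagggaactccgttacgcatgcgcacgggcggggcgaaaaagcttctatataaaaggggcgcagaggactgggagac

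An E2F word was present in 272 of 27305 RefSeq promoters of this length (0.996%) and in 29 of the 380 lower genes with a promoter (7.63%). Among the S-phase genes 10 of 56 promoters held it (17.9%). The H2B octamer was in 1.66% of all promoters and in 10 of the 14 H2B promoters (71.4%). The CHR word was in 13.6% of all promoters, in 32 of 63 mitotic ones (50.8%) and in 15 of 48 histone ones (31.2%). Among the genes tested, 11516 had a promoter (71.4%, under the 80% asked of such a set), and of these 1.73% held an E2F word, 8.48% the CHR word and 1.48% the octamer. The HEXIM1 window held none of these words. A match is a run of letters and not a measured binding site. The higher genes had a promoter for 69.9% of members, under the 80% needed for such a count, so none is given.

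S-phase genes were lower with atirmociclib. Of 70 E2F target genes of DNA synthesis tested, 37 were lower (52.9%, against 2.81% of all genes) and none was higher, with a median log2 difference of -0.53 against 0.00 over all genes. All 3 atirmociclib libraries lay below all 3 ribociclib libraries for 52 of the 70, against 11.5% of all genes. Both drugs share the vehicle libraries: 70 of these genes were lower than vehicle with atirmociclib (median -1.71) and 67 with ribociclib (median -1.29). In bulk RNA, fewer cells in S phase and less RNA per cell cannot be told apart.

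CCNE2 encodes cyclin E2, the partner of CDK2 at the entry to S phase. Its normalised count was 31.7, 26.8 and 22.8 in the atirmociclib libraries, 102, 138 and 186 in the ribociclib libraries, and 525, 722 and 682 in vehicle. The 3 groups did not overlap, and the fitted level was 4.98 times higher with ribociclib, on the scale of value + 1 (log2 difference -2.31 ± 0.25 (SE), adjusted p = 2.01e-05, limma). CCNE2 shares 37.1% of its exonic bases with genes on the other strand, and the strand setting of the counting was not given in the sources used here. CLSPN encodes claspin, an adaptor of the replication checkpoint. It was at 70.3, 55.8 and 53.5 with atirmociclib, 260, 205 and 257 with ribociclib, and 1555, 1530 and 1498 in vehicle. The log2 difference between the drugs was -1.99 ± 0.14 (adjusted p = 9.69e-08, limma). MCM10, a factor that activates the replicative helicase, stood at 126, 125 and 147 against 388, 352 and 381 (-1.49 ± 0.13, adjusted p = 1.73e-06, limma). MCM2, a subunit of that helicase, moved less but was as well separated, at 1220, 1156 and 1194 against 1755, 1694 and 1779 (-0.55 ± 0.05, adjusted p = 2.32e-06, limma). ZNF367, a zinc-finger gene outside the list whose promoter is printed above, had 72.8, 58.6 and 58.6 with atirmociclib and 209, 199 and 260 with ribociclib. Its fitted level was 3.47 times higher with ribociclib on the same scale (adjusted p = 8.00e-07, limma), and vehicle lay above both at 743 to 769. PKMYT1, the kinase that holds CDK1 inactive, was also lower, at 35.1, 59.8 and 51.9 against 148, 169 and 93.7 (-1.46 ± 0.26, adjusted p = 0.0025, limma). It shares 31.9% of its exonic bases with genes on the other strand.

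**Figure D2:**
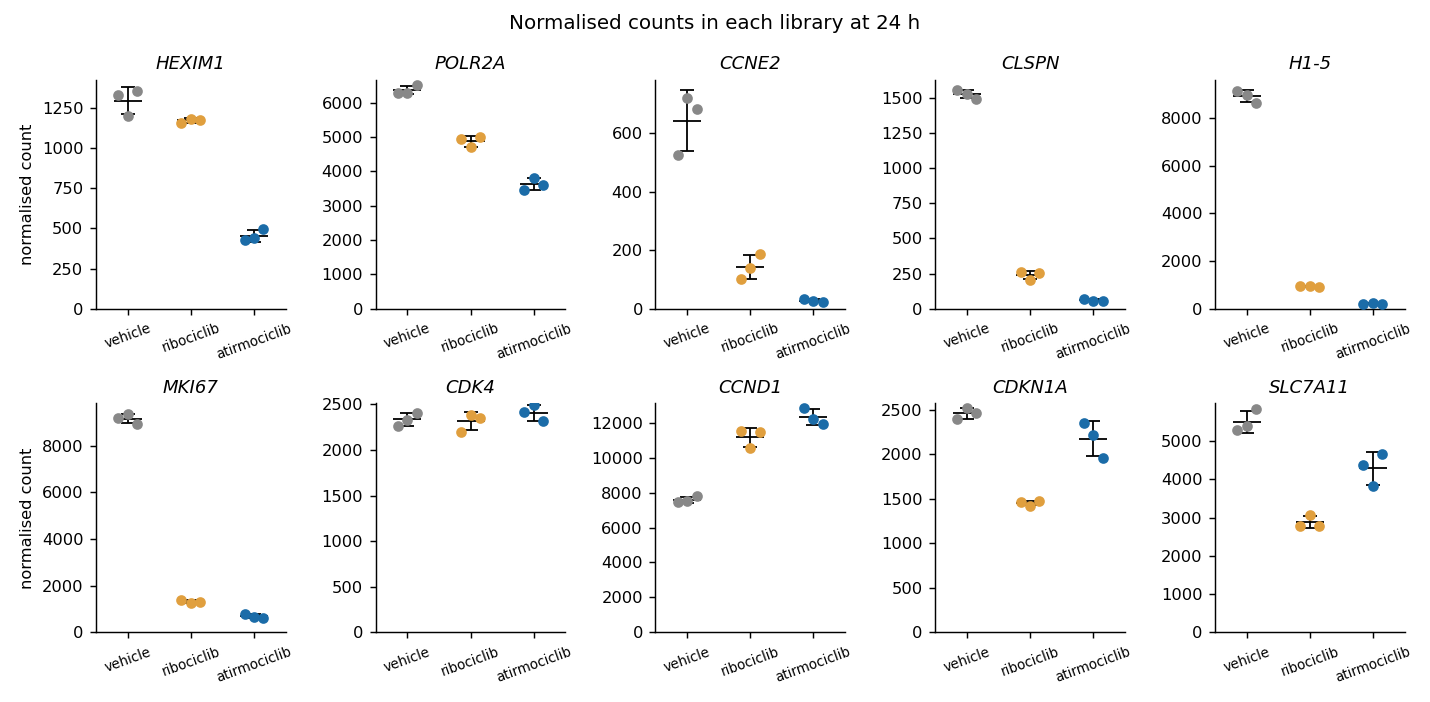
Normalised count on a linear axis from 0 for 10 genes in the 3 vehicle, 3 ribociclib and 3 atirmociclib libraries of 24 h; points are libraries, and the black bar and whiskers are the mean and SD. HEXIM1 in atirmociclib lies at 427 to 497 against 1157 to 1185 in ribociclib, while CDK4 lies at 2315 to 2490 against 2199 to 2386, where the groups overlap.

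Most histone genes were lower. Of 53 replication-dependent histone genes tested, 42 were lower with atirmociclib (79.2%, against 2.81% of all genes) and none was higher. Of these 42, 16 were lower by 2-fold, and the list median was -0.72. Both drugs lay far below vehicle, with medians of -2.81 for atirmociclib and -2.19 for ribociclib, and the same vehicle libraries serve both values. H1-5 encodes a linker histone and was at 188, 219 and 192 with atirmociclib, 934, 950 and 907 with ribociclib, and 8635 to 9112 in vehicle. This gave a log2 difference of -2.22 ± 0.12 (adjusted p = 3.53e-09, limma) with no overlap between any of the groups. H2BC17 encodes a histone H2B and had 109, 89.3 and 110 against 362, 372 and 389 (-1.86 ± 0.11, adjusted p = 9.39e-09, limma). H2AC16, a histone H2A gene, had 125, 95.8 and 118 against 363, 369 and 406 (-1.75 ± 0.12, adjusted p = 1.32e-07, limma). H2BC14, H2BC11, H2AC4, H3C2 and H2AC12 also stood among the 15 lowest differences of genes with a mean of at least 50 and no overlap, from -1.88 for H2BC14 to -1.44 for H2AC12, with the same order of the drugs in each. H3C15, a histone H3 gene, was at 565, 542 and 500.5 against 1597, 1725 and 1649, but shares a stretch of 518 bases at 98% identity or more with H3C14, so the split of reads between the 2 copies is uncertain. The search for near-identical copies was made for the named genes only and not for the 11 members not past the test. The list as a whole ran from -3.64 to 5.63. The libraries were made with a total RNA kit, and these histone transcripts are known to lack a poly(A) tail.

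Mitotic genes were lower too. Of 74 tested, 40 were lower (54.1%, against 2.81% of all genes) and 1 was higher, with a median of -0.50. Their median against vehicle was -2.29 with atirmociclib and -1.87 with ribociclib. MKI67, which encodes the proliferation marker Ki-67, had 794, 657 and 626 with atirmociclib, 1368, 1246 and 1321 with ribociclib, and 8954 to 9371 in vehicle. The fitted level was 1.9 times higher with ribociclib (-0.93 ± 0.08, adjusted p = 1.73e-06, limma); both lay far below vehicle, by -3.73 and -2.81. TOP2A, the topoisomerase that untangles replicated DNA, had 351, 392 and 249 against 635, 722 and 619 (-1.02 ± 0.14, adjusted p = 0.00036, limma). KIF20A, a kinesin of cytokinesis, had 105, 112 and 48.4 against 218, 204 and 251 (-1.42 ± 0.22, adjusted p = 0.000668, limma). CDK1 and TPX2, the kinase and a spindle factor of mitosis, differed by -0.78 ± 0.09 and -0.44 ± 0.06 (adjusted p = 5.43e-05 and 0.000172, limma). FOXM1, the transcription factor of this group, did not pass the test at 974, 840 and 987 against 833, 914 and 831 (0.12, 95% interval -0.05 to 0.28, adjusted p = 0.488, limma). PTTG1, which encodes securin, was the 1 higher member, named here after its value was seen: 634, 445 and 485 against 408, 392 and 348 (0.43 ± 0.10, adjusted p = 0.0187, limma). Its call was lost without atirmociclib replicate 1 or without ribociclib replicate 3, with an adjusted p of up to 0.0963.

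In the CDK4/6-RB pathway most members did not pass the test. Of 31 genes tested, 7 were lower (22.6%, against 2.81% of all genes), 1 was higher (3.23%, against 1.83%) and 23 did not pass. The 7 were CCNE2, CCNA2, FBXO5, E2F2, CDK1, E2F1 and CDK2, of which CCNA2 encodes cyclin A2 and FBXO5 an inhibitor of the anaphase-promoting complex. This list shares members with the lists above, so its count is not a separate result. Among them, CCNE2 is also in the S-phase list and CCNA2 in the mitotic list. The library medians of the drugs overlapped, at -0.75 to -0.70 from vehicle with atirmociclib and -0.79 to -0.69 with ribociclib. CCNA2 was at 125, 124 and 81.4 against 240, 245 and 202 (-1.07 ± 0.14, adjusted p = 0.000175, limma), and FBXO5 at 74.2, 70.6 and 78.3 against 138, 138 and 170 (-0.98 ± 0.12, adjusted p = 0.000121, limma). The targeted kinase gene CDK4 had 2415, 2490 and 2315 against 2199, 2386 and 2352, an overlap, with a log2 difference of 0.06 and a 95% interval of -0.06 to 0.17. CDK4 shares 44.2% of its exonic bases with TSPAN31 on the other strand. CDK6 transcripts were low and scattered, at 159, 51.5 and 45.3 against 43.8, 26.6 and 36.3. Its interval of -0.40 to 2.44 (adjusted p = 0.469, limma) does not bound the difference within 2-fold. CCND1, the gene of cyclin D1, had 12842, 12218 and 11932 against 11518, 10554 and 11452, all atirmociclib libraries above all ribociclib ones, without passing the test (0.14, adjusted p = 0.0729, limma). RB1 went the other way, at 855, 803 and 846 against 1046, 1029 and 908 (-0.25, adjusted p = 0.0945, limma). CDKN1A encodes the CDK inhibitor p21 and was the member that was higher. It had 2346, 2219 and 1959 with atirmociclib, 1458, 1424 and 1469 with ribociclib, and 2400 to 2515 in vehicle. The ribociclib libraries thus lay below the other groups, and the drugs differed by 0.58 ± 0.09 (adjusted p = 0.00103, limma). TNFRSF10B, a death receptor gene of the p53 target list, was at 2856, 2785 and 2872 against 2578, 2382 and 2374. It lost its call when 1 of 4 libraries was left out (atirmociclib replicate 1 or 3, ribociclib replicate 2 or 3), with an adjusted p of up to 0.0824. These were the 2 of 37 p53 targets tested that passed, both higher (5.41%, against 1.83% of all genes).

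**Figure D3:**
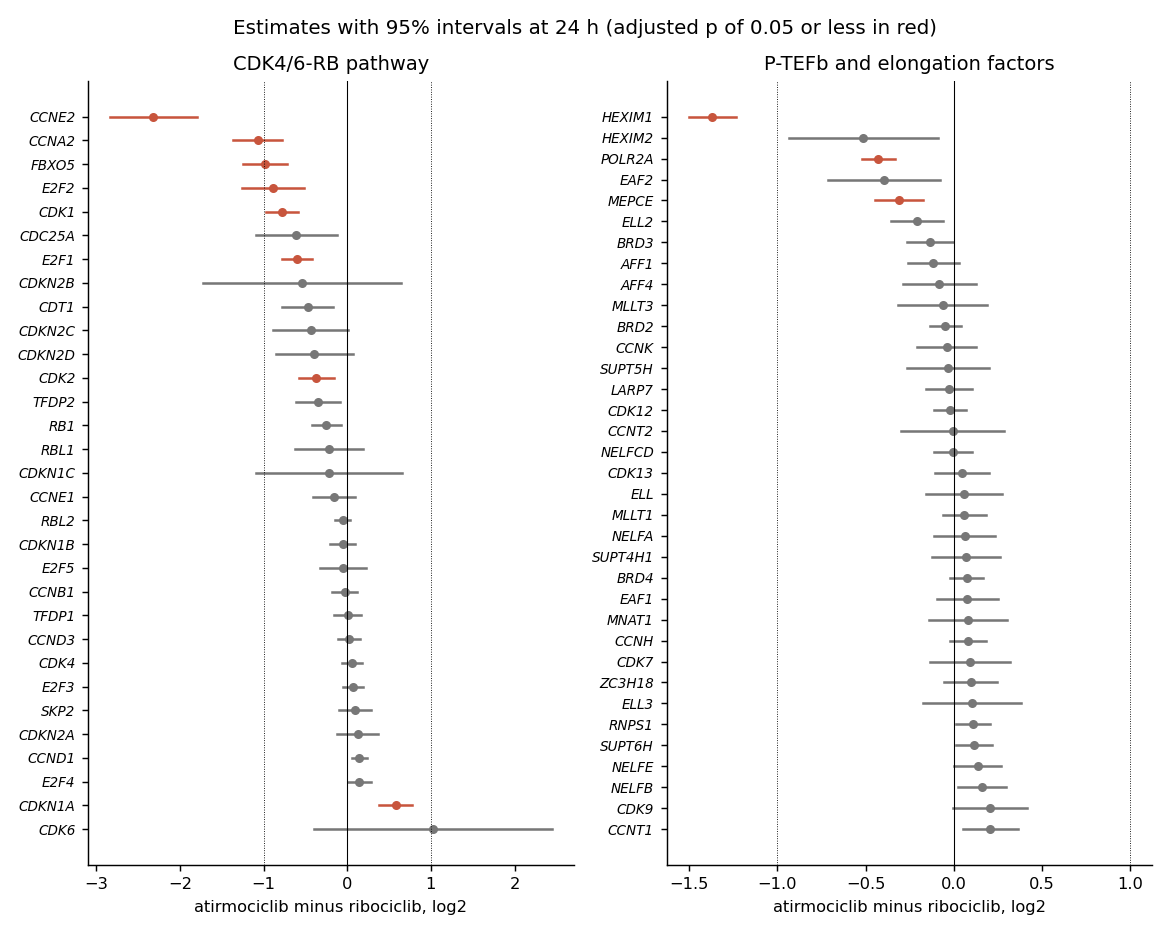
Log2 difference atirmociclib minus ribociclib at 24 h with its 95% interval for the 31 genes of the CDK4/6-RB pathway and the 35 genes of P-TEFb and elongation factors; red marks an adjusted p of 0.05 or less and dotted lines mark 2-fold. HEXIM1 at -1.37 stands alone below 2-fold in its panel, and CDK6 has the widest interval in the other, -0.40 to 2.44.

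HEXIM1 had the lowest adjusted p of all 16137 genes. P-TEFb is CDK9 with a T-type cyclin, the kinase that releases paused RNA polymerase II, and HEXIM1 holds it inactive in a complex with 7SK RNA. HEXIM1 was at 427, 441 and 497 in the atirmociclib libraries, 1157, 1185 and 1177 in the ribociclib libraries, and 1331, 1201 and 1356 in vehicle. The atirmociclib libraries lay below both other groups, with a difference from vehicle of -1.51 for atirmociclib and -0.14 for ribociclib. The drugs differed by -1.37 ± 0.06 (adjusted p = 6.54e-10, limma), with a fitted level 2.58 times higher with ribociclib. At 1 µM, atirmociclib gave 609 to 648, between the 2 groups, and AU2-94 gave 1192 to 1228 at 1 µM and 1156 to 1210 at 2 µM. HEXIM1 shares 14.3% of its exonic bases with HEXIM2-AS1 on the other strand. POLR2A, the largest subunit of RNA polymerase II, was at 3466, 3808 and 3597 against 4932, 4700 and 4990, with vehicle at 6294 to 6515 (-0.43 ± 0.04, adjusted p = 1.43e-05, limma). MEPCE, the enzyme that caps 7SK RNA, was at 1187, 1238 and 1201 against 1512, 1547 and 1445 (-0.31 ± 0.06, adjusted p = 0.00707, limma). It shares 61.3% of its exonic bases with another gene on the same strand. The list of 35 P-TEFb and elongation factor genes had a median of 0.05, and the library medians of the drugs overlapped. HEXIM1, POLR2A and MEPCE were its 3 lower genes (8.57%, against 2.81% of all genes), and none was higher. Each was lower and past the test under all 18 alternatives run. CDK9 was at 1346, 1467 and 1525 against 1328, 1156 and 1283, which did not pass (0.20, 95% interval -0.01 to 0.41, adjusted p = 0.297, limma).

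Of the 296 genes higher with atirmociclib, 29 belonged to any of the 26 lists, which cover 946 of the 16137 genes tested. Of the 15 with the largest difference among those with a symbol, a mean of at least 50 and no overlap between the drugs, 6 kept the call whichever library was left out. OPLAH, an enzyme of the glutathione cycle, had 1165, 1150 and 985 against 691, 685 and 637 (0.71 ± 0.08, adjusted p = 3.99e-05, limma), above vehicle at 763 to 797. SOX8, a transcription factor gene, had 446, 459 and 446 with atirmociclib, 282, 282 and 318 with ribociclib, and 168 to 179 in vehicle, an order with no overlap (0.62 ± 0.10, adjusted p = 0.000854, limma). ZNF276 was at 1509, 1398 and 1542 against 865, 997 and 1024 (0.63 ± 0.09, adjusted p = 0.000391, limma), and 32.3% of its exonic bases overlap FANCA on the other strand. KLKP1, a kallikrein pseudogene, was at 277, 373 and 329 against 159, 211 and 177 (adjusted p = 0.00136, limma), and KCNG1, a potassium channel subunit gene, at 314, 256 and 294 against 211, 173 and 181 (adjusted p = 0.00678, limma). KLKP1 shares 21.1% of its exonic bases with another gene model on the same strand. FAM86B3P, a pseudogene, was the other of the 6. The rest, ZNF578, MAPK15, ZNF665, TSPEAR-AS2, NRBP2, PAQR6, L3MBTL1, HYCC2 and ZNF564, differed by 0.61 to 1.02 and lost the call without at least 2 of the 6 libraries. With the replicate number as a block, ZNF578, NRBP2 and ZNF564 were no longer past the test (adjusted p = 0.0562, 0.0573 and 0.0518, limma).

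Some genes of the ATF4 response were higher. ATF4 is a stress-induced factor that raises amino acid synthesis, uptake and tRNA charging. Of 53 genes of this response and the unfolded protein response tested, 8 were higher (15.1%, against 1.83% of all genes) and 1, HERPUD1, was lower. All 3 atirmociclib libraries lay above all 3 ribociclib libraries for 23 of the 53, against 11.5% of all genes, and the median was 0.10. SLC7A11, the cystine transporter subunit, had 4383, 3821 and 4667 with atirmociclib, 2791, 3076 and 2794 with ribociclib, and 5282 to 5834 in vehicle. Ribociclib thus stood furthest below vehicle, and the drugs differed by 0.57 ± 0.08 (adjusted p = 0.000521, limma). ASNS, asparagine synthetase, was placed in the same order at 2692, 2529 and 2776 against 2060, 1879 and 1801, with vehicle at 2804 to 3431 (0.48 ± 0.07, adjusted p = 0.000598, limma). SHMT2, a mitochondrial enzyme of serine use, had 8232, 7912 and 7489 against 5694, 6173 and 6417 (0.37 ± 0.05, adjusted p = 0.000253, limma). GARS1, glycyl-tRNA synthetase, had 5926, 6140 and 6792 against 4714, 5206 and 4977, with vehicle at 6155 to 6465, level with atirmociclib (0.34 ± 0.05, adjusted p = 0.000656, limma). PHGDH, PSAT1, SLC7A1 and CARS1 were the other higher members, from 0.18 for SLC7A1 to 0.33 for PSAT1. ASNS shares 49.3% of its exonic bases with another gene model on the same strand.

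**Figure D4:**
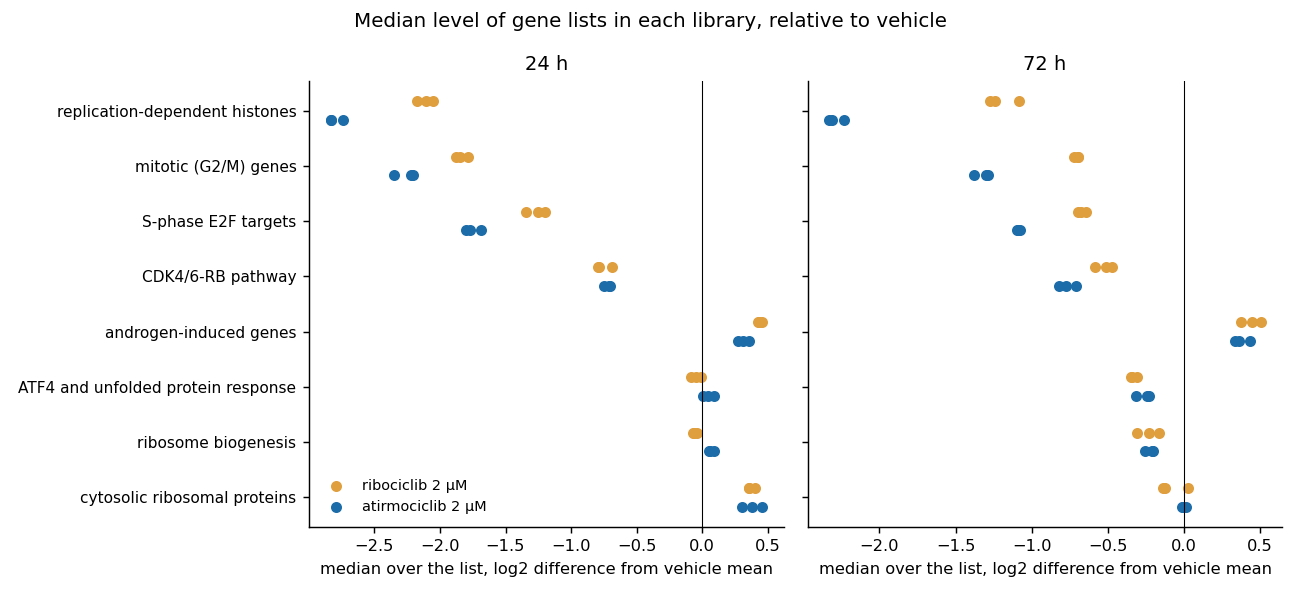
Median over the members of 8 gene lists of the log2 difference from the vehicle mean, 1 point per library, for ribociclib and atirmociclib at 2 µM, at 24 h (left) and 72 h (right). At 24 h the histone medians lie at -2.83 to -2.74 with atirmociclib and -2.17 to -2.05 with ribociclib, and the groups are separated for the S-phase, mitotic and histone lists at both times.

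Androgen-induced genes leaned lower at 24 h. Of 50 tested, 9 were lower (18%, against 2.81% of all genes) and none was higher, with a median of -0.11. Leaving out 1 library gave 6 to 8 lower. The list lay above vehicle with both drugs (medians 0.33 with atirmociclib and 0.45 with ribociclib). At 72 h, 6 of the list were higher and 7 lower, with a median of -0.02, and the library medians of the drugs overlapped. MAF, a transcription factor gene, had 1907, 1850 and 1964 against 2751, 2527 and 2509, with vehicle at 711 to 795 (-0.44 ± 0.06, adjusted p = 0.000391, limma). PLPP1, a lipid phosphatase, had 4292, 4336 and 4091 against 5387, 5350 and 5203 (-0.33 ± 0.05, adjusted p = 0.00144, limma), and CENPN, a kinetochore gene of this list, differed by -0.30 ± 0.06 (adjusted p = 0.00345, limma). SPDEF, a luminal transcription factor, had 2822, 2703 and 2421 against 3242, 3108 and 3182 (-0.27 ± 0.05, adjusted p = 0.0062, limma). The best known androgen targets did not pass: KLK3, the gene of PSA, had an interval of -0.08 to 0.14 and TMPRSS2 one of 0.00 to 0.29. ACP3, prostatic acid phosphatase, was lower at 1013, 889 and 890 against 1440, 1323 and 1508 (-0.61 ± 0.09, adjusted p = 0.000517, limma), whereas FOXA1, a pioneer factor of luminal cells, was higher by 0.21 ± 0.04 (adjusted p = 0.00978, limma). The FOXA1 call was lost without ribociclib replicate 1 or 2, with an adjusted p of up to 0.0547. Of the 16 androgen-repressed genes, UGT2B11 and UGT2B17, genes of the UGT2B enzyme family, were higher and PEG3, an imprinted zinc-finger gene, was lower. PEG3 was at 12860, 13447 and 14567 against 16611, 16286 and 17013 (-0.29 ± 0.05, adjusted p = 0.00348, limma), with vehicle level with atirmociclib. PEG3 shares 39.1% of its exonic bases with a gene on the other strand and 12.9% with ZIM2 on the same strand. UGT2B11 lost its call without each of the 6 libraries in turn and UGT2B17 without 4 of them and with the replicate block (adjusted p = 0.0511).

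In the protein synthesis and stress lists few genes passed the test, though in some lists the share was above that of all genes. Over all genes, 1.83% were higher, 2.81% were lower, and 11.5% had all atirmociclib libraries above all ribociclib ones. None of the 79 cytosolic ribosomal protein genes passed in either direction (limma, median 0.01). Of 56 ribosome biogenesis genes 4 were higher (7.14%), BOP1, DDX21, GNL3 and DKC1, by 0.16 to 0.27, while 21 had all atirmociclib libraries above all ribociclib ones. DKC1 also lost its call with the replicate block (adjusted p = 0.0575, limma). The list had 0 calls without atirmociclib replicate 3 or without ribociclib replicate 1, 1 without atirmociclib replicate 1 or ribociclib replicate 3, 2 without atirmociclib replicate 2 and 4 without ribociclib replicate 2. In the cholesterol and SREBP list of 38, 4 were higher (10.5%) and 1 lower (2.63%). SREBF1, the gene of the lipogenic factor SREBP1, had 8452, 8878 and 9469 against 6879, 7088 and 7081 (0.35 ± 0.07, adjusted p = 0.00401, limma), and TM7SF2, a sterol reductase, had 3639, 3621 and 4090 against 4985, 4656 and 4761 (-0.35 ± 0.05, adjusted p = 0.000508, limma). The other 3 were LSS, FASN and SCD, and leaving out 1 library gave 1 to 4 higher. WIPI1, an autophagy gene, was lower at 53.1, 74.9 and 54.9 against 128, 118 and 132 (-1.05 ± 0.22, adjusted p = 0.00852, limma), and 28.1% of its exonic bases overlap other genes on the opposite strand. FTL, the ferritin light chain, differed by -0.26 ± 0.05 (adjusted p = 0.00455, limma) and the anti-proliferative gene BTG1 by -0.34 ± 0.06 (adjusted p = 0.00292, limma). Of the 13 genes of the mitochondrial genome none passed, with 9 of them above in all 3 atirmociclib libraries, and 10 were higher after the correction for GC content and length. Of 23 heat shock genes 1 was higher (4.35%) and 3 lower (13%), by at most 0.24 in size. Of 46 interferon genes 1 was higher (2.17%) and 2 lower (4.35%). None of 16 TGF-beta and BMP response genes passed, and 1 of 54 hypoxia-inducible genes did, PDK3 (-0.37 ± 0.08, adjusted p = 0.00791, limma). The NRF2 and AHR list had 2 higher and 1 lower of 32, the lysosome and autophagy list 2 and 1 of 51, the nuclear respiratory chain list 2 and 0 of 76, and the short-lived transcripts 0 and 1 of 54.

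Against vehicle, the 453 lower genes fell into several patterns. Since vehicle is common to both comparisons, these are counts of paired values and no test of likeness. Of all genes tested, 18.6% were higher and 16.2% lower than vehicle with atirmociclib, and 16.8% and 15.2% with ribociclib. Both drugs lay below vehicle for 210, atirmociclib alone for 88 and ribociclib alone lay above it for 75. Both lay above vehicle for 51. Of the 296 higher genes, atirmociclib alone lay above vehicle for 107, ribociclib alone lay below it for 77, both lay above for 58 and both below for 24. The higher genes were shorter and richer in GC than the tested genes as a whole, with a median gene span of 18252 bp against 26857 bp and a median GC content of 54.8% against 47.9%. The lower genes outside the S-phase, mitotic, histone and CDK4/6-RB lists lay on the other side, with 45563 bp and 44%. The part of GC content and length in these differences was not tested beyond the correction given above.

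The same drugs and dose at 72 h, in separate libraries, gave 789 higher genes (4.83%) and 711 lower (4.35%), 9.18% in either direction, and 34 (0.208%) and 104 (0.636%) at 2-fold. With libraries scaled to equal totals the split was 395 higher and 1167 lower. Of the 452 genes lower at 24 h and tested at 72 h, 389 had a negative difference at 72 h (86.1%, against 48.5% of all genes) and 228 passed there in the same direction. Of the 295 higher ones, 252 had a positive difference (85.4%) and 97 passed. The median difference of the lower set was -0.47 at 24 h and -0.31 at 72 h, and that of the higher set 0.29 and 0.16. The sets were chosen by their values at 24 h, which alone can make the medians smaller at 72 h. These medians therefore do not show a change with time. HEXIM1 recurred at the same size, at 637, 629 and 673 against 1500, 1681 and 1516 (-1.27, adjusted p = 5.56e-10, limma), as did MKI67, at 2372, 2230 and 2626 against 4663, 4319 and 4795 (-0.93). POLR2A was at 4766, 4832 and 5269 against 6967, 6613 and 6784. Mitotic and histone genes were lower in larger number at 72 h, 64 of 74 and 45 of 53, with medians of -0.66 and -0.99, and S-phase genes in 45 of 70 with a median of -0.37. SOX8 also recurred, at 541, 488 and 445 against 227, 218 and 282 (1.02, adjusted p = 1.97e-05, limma).

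**Figure D5:**
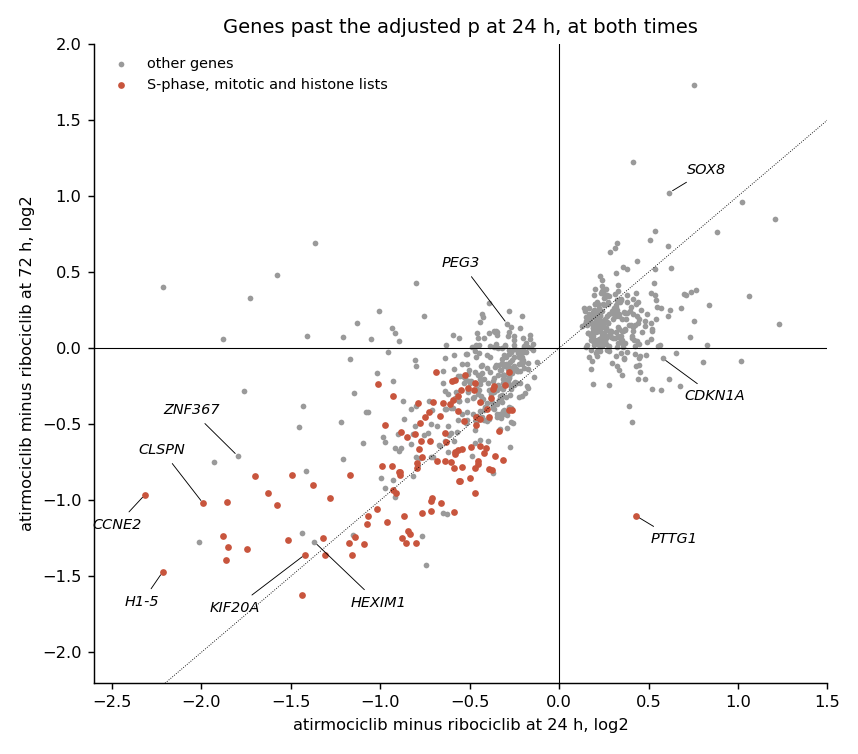
Log2 difference atirmociclib minus ribociclib at 24 h (x) and 72 h (y) for the 747 genes past the adjusted p at 24 h and tested at 72 h, 5 of which lie beyond the axes; red marks the S-phase, mitotic and histone lists and the dotted line marks equal differences. Points gather in the lower left and upper right, with PTTG1 at 0.43 and -1.10 in the lower right.

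Some differences changed between the times. Over 16850 genes the difference became more positive by 72 h for 136 (0.807%) and more negative for 65 (0.386%), by a test of the change itself in limma. CCNE2 rose from -2.31 to -0.96, with ribociclib at 299, 199 and 168 and atirmociclib at 100.7, 116.1 and 114.1 at 72 h (adjusted p of the change 0.0335, limma). CLSPN and ZNF367 shrank in the same manner, from -1.99 to -1.02 and from -1.80 to -0.71 (adjusted p = 0.00182 and 0.000452, limma). CDKN1A was level at 72 h, at 1671, 1672 and 1717 against 1835, 1647 and 1824 (adjusted p of the change 0.00124, limma). PTTG1 turned round, at 411, 415 and 390 against 738, 1083 and 831 at 72 h. Of the 53 ATF4 and unfolded protein response genes, 16 were higher at 72 h, with a median of 0.12, but only 1 was higher at both times. The library medians of this list overlapped at 72 h, at -0.31 to -0.23 from vehicle with atirmociclib and -0.35 to -0.31 with ribociclib.

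Few genes passed the test between the doses of atirmociclib at 24 h. Between 2 µM and 1 µM, 2 of 16137 genes passed the adjusted p in limma (0.0124%), against 1431 at an unadjusted p of 0.05 (8.87%). One was HEXIM1, at a mean of 455 with 2 µM and 631 with 1 µM (-0.48, adjusted p = 0.00612, limma). The other was AHCTF1, a nuclear pore gene named after its value was seen, at 4882 with 2 µM and 3529 with 1 µM (0.47). AHCTF1 was also higher than with ribociclib at 2 µM (3607, 3672 and 3621), by 0.42 (adjusted p = 0.000464, limma). Vehicle was at 5238, 4660 and 4833, level with atirmociclib at 2 µM (-0.008 against vehicle). Ribociclib lay below vehicle (-0.43, adjusted p = 2.78e-05, limma).

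The library that stood apart touched hypoxia-inducible and scattered genes. PLOD2, a collagen-modifying enzyme of the hypoxia list, was at 570, 427 and 44.7 with atirmociclib against 238, 195 and 290 with ribociclib, and NDUFA4L2, a mitochondrial protein of the same list, at 2497, 1869 and 202 against 1243, 637 and 1298. In both genes replicate 3 was the low one. Their differences were -0.10 and -0.04 with all libraries, and 1.05 and 1.10 without replicate 3, none of them past the test (adjusted p of 0.274 to 0.987). The lower counts of the cell cycle lists were 32 of 70 S-phase, 35 of 74 mitotic and 36 of 53 histone genes without that library, with medians of -0.52, -0.51 and -0.67.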

How the data were processed

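LNCaP cells were treated for 24 or 72 h, and RNA was measured by total RNA sequencing in 3 biological replicates a group. Per the study's methods the authors ran nf-core/rnaseq on GRCh38 with STAR 2.6.1d and used DESeq2; annotation release, strand setting and the exact normalisation were not given in the sources used here. The deposited table holds normalised counts by the authors, taken here as a signal: values are neither whole nor multiples of a step, so no count model was used. Every column matched a labelled sample.

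A gene was tested where 3 or more libraries reached a value of 10. Log2(value + 1) was fitted in limma 3.58.1 (R 4.3.3) over the 18 libraries of a time point, 6 groups, with trended empirical Bayes and Benjamini-Hochberg adjustment over all genes tested; the change between times used all 36 libraries. A log2 fold change on this scale understates changes of low genes. A gene was past the test at an adjusted p of 0.05 or less, and 2-fold calls also needed an absolute log2 difference of 1. The fit was tested on simulated data. Replicate numbers appear in the labels under the tag batch, and a fit with the number as a block was therefore run; deviations of same-numbered libraries correlated by -0.054 to 0.032 in 3 pairs at 24 h. One pair of compounds was compared. Values are per-library normalised counts; errors are SE of the fit unless stated.

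Members and the 26 gene lists were chosen with earlier results of these data known. Named genes were the 15 highest and 15 lowest past the test with a mean of at least 50 and no overlap, up to 4 per list by adjusted p (or the lowest p where none passed), a fixed set of pathway genes, and 5 genes in which the library that stands apart differed most; HERPUD1, PHGDH, PSAT1, SLC7A1, CARS1, E2F1, E2F2, CDK2, FASN, PTTG1 and AHCTF1 were named after their values were seen. Overlaps came from GENCODE exons and from matches of at least 100 bases at 98% identity. Of the 102 genes named by these rules, 48 overlapped exons of another gene on the other strand and 21 on the same strand. Alternatives were pseudocounts, filters, scalings, the replicate block, the groups compared alone, no trend, each library left out, and, added after seeing the data, a correction for GC content and length. One named gene is not reported here.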

Additional observations from a re-analysis of the deposited data

Results flagged for a closer look

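The difference between atirmociclib and ribociclib changed from 24 h to 72 h, by limma's test of the change itself, for 12 of the genes named above. All changes are on the log2 scale, as the difference at 72 h minus that at 24 h. For S-phase and histone genes and ZNF367, the change was 1.35 for CCNE2 (adjusted p = 0.0335), 1.09 for ZNF367 (adjusted p = 0.000452), 0.97 for CLSPN (adjusted p = 0.00182), 0.75 for H1-5 (adjusted p = 0.002) and 0.68 for H3C15 (adjusted p = 0.00573). Each of these 5 was lower with atirmociclib at both times, and less so at 72 h. For PTTG1 it was -1.54 (adjusted p = 2.88e-07), from a positive difference at 24 h to a negative one at 72 h. For FOXM1 the change was -0.48 (adjusted p = 0.00462), but its difference at 24 h had not passed the test, so a turn of sign is not shown. For the remaining genes, the change was -0.65 for CDKN1A (adjusted p = 0.00124), -0.27 for GARS1 (adjusted p = 0.026), -0.93 for PAQR6 (adjusted p = 0.019), 0.45 for TM7SF2 (adjusted p = 0.00167) and 0.45 for PEG3 (adjusted p = 0.000487). The wells for 72 h were seeded with fewer cells, so time and seeding density cannot be told apart.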

How the results depend on the processing

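The 79 named genes past the test kept their direction under each of the 18 alternatives at 24 h in which they were tested, and 45 stayed past it under each; a mean of at least 100 left 93 of 104 genes to test. With the replicate block 263 genes were higher and 406 lower at 24 h; the calls of ZNF578, NRBP2, ZNF564, DKC1, UGT2B17, PARP9, SGSH and HSPB1 were lost, and that of no other named gene. At 24 h the 2-fold calls fell from 7 higher to 4 with a pseudocount of 8, to 0 with a mean of at least 100 and to 4 with the groups compared alone, and from 61 lower to 37 with that mean and 39 with those groups alone. At 72 h they fell from 34 higher to 22 with a pseudocount of 8 and 8 with that mean, and from 104 lower to 50 with that mean. The groups compared alone gave 141 higher and 274 lower genes at 24 h and 388 and 383 at 72 h, where equal totals gave 395 and 1167. The changes between times, 136 more positive and 65 more negative, became 87 and 122 with equal totals, 58 and 14 with the groups alone, and 42 more negative with no filter. The cause of these moves was not tested, except that fewer genes or samples enter by construction.

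Leaving out 1 library gave 1 to 9 higher genes at 2-fold at 24 h (1 without ribociclib replicate 1), 163 to 209 higher and 301 to 348 lower at the adjusted p, and 88 to 128 more positive and 41 to 67 more negative changes. The differences that reversed were none of them past the test. They ranged, over the libraries left out, from -0.0306 to 0.0939 for KLK3, -0.77 to 1.05 for PLOD2, -0.71 to 1.10 for NDUFA4L2, -1.72 to 2.16 for NXF2, -1.60 to 1.89 for FAM156B, -1.04 to 1.18 for SCNN1G and -1.04 to 1.00 for AKAP12. The highest value of each came without atirmociclib replicate 3. With a pseudocount of 8, NXF2 was at 0.378 and FAM156B at 0.0757, and with quantile normalisation FAM156B was at 0.0552 and KLK3 at -0.00019. Depth in reads is unknown, which limits what can be said of genes with low values.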

Other observations

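The higher and lower genes were unevenly placed along the chromosomes (gene starts, GRCh38, windows of 10 Mb). On chromosome 8 from 140 to 150 Mb, 14 of 97 tested genes were higher with atirmociclib (14.4%) and none lower, in a window with a median GC content of 62.7%. On chromosome 16 from 0 to 10 Mb, 15 of 204 were higher (7.35%). On chromosome 6 from 20 to 30 Mb, which holds the histone clusters, 39 of 106 were lower (36.8%). These windows were picked after their counts were seen, and the part of GC content in them was not tested.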
